A study of Mus musculus with 9 samples.

Results

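This report follows 51 genes of mitosis, chosen by name for what their proteins do in cell division, with earlier results of these data known but by no rule on measured values, among the 56748 genes of a count table from cultured osteocyte-like cells. They fall into 7 role groups: 10 kinases, cyclins and phosphatases of mitotic entry, 8 regulators of the spindle checkpoint and of anaphase, 10 proteins of the centromere and kinetochore, 9 mitotic kinesins, 7 proteins of the spindle and of cytokinesis, 3 subunits of the chromosomal passenger complex, and 4 chromosome proteins and transcription factors. All 51 were found in the table, on 16 chromosomes, and all 51 passed the filter on low counts, with 193 reads as the lowest count of any member in any library (Cenpk). The cells were MLO-Y4, an osteocyte-like line of the mouse that divides in culture, grown on collagen below a transwell insert that held primary articular chondrocytes from young C57BL/6J mice. In the control group the chondrocytes were not stimulated, whereas in the other groups they received 10 ng/mL interleukin-1β for 6 h and then shared the wells with MLO-Y4 cells for 24 h or 48 h. Each group had 3 libraries of RNA from the MLO-Y4 side. The labels do not give the co-culture time of the control group, so stimulation and time in culture cannot be told apart, and they name the line of the 48 h samples MLO-Y5, MLO-Y6 and MLO-Y7 where the culture protocol names MLO-Y4 for all. RNA was read from whole cultures, so fewer dividing cells and less mitotic RNA per dividing cell cannot be told apart in any value below.

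Mitosis is run by CDK1 bound to cyclin B, which is switched on by CDC25 phosphatases and works with polo-like and Aurora kinases to condense chromosomes and build the spindle. Kinetochores, the protein plates on centromeric chromatin, capture microtubules, and the spindle checkpoint holds back the anaphase-promoting complex and its activator CDC20 until every chromosome is attached. Most of these genes are transcribed in a wave late in the cell cycle under B-MYB, FOXM1 and the MuvB complex, and are kept low by the DREAM complex in cells that rest, so their transcripts are commonly read as a measure of how much of a culture divides. Osteocytes in bone are regarded as cells that have left the cell cycle, whereas the MLO-Y4 line comes from a mouse that carried a viral T antigen under the osteocalcin promoter, and it proliferates.

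The control libraries held 12250628 to 15956441 counts, those of 24 h held 14440454 to 15558585 and those of 48 h held 16458398 to 18515456. Levels are given as CPM, the count of a gene relative to the total of its library after scaling. Scaling factors differed slightly by group, at 0.999 to 1 in control, 0.983 to 0.99 at 24 h and 1.013 to 1.015 at 48 h. No library stood apart from its group in scaling factor, or from the others in mitochondrial share. Of the osteocyte markers, Phex (151 to 363 reads) and Pdpn (2640 to 4275 reads) were present, Dmp1 had 6 reads or fewer and Sost at most 1, and Mepe and Fgf23 had none. Phex and Pdpn were called higher at 48 h than in control (log2 fold change 0.43 and 0.146, adjusted p = 0.0024 and 0.0161). At 24 h Pdpn was called higher (0.272, adjusted p = 0.000935) and Phex was at -0.245 (adjusted p = 0.245). All 6 osteoblast markers were detected, with a summed level of 5510.3 ± 76.2 CPM (SD, n = 3) in control, 5516 ± 112.5 at 24 h and 4279.9 ± 19.5 at 48 h, beside 227 ± 1.92, 269 ± 4.25 and 255 ± 9.14 CPM for the osteocyte list. The lower osteoblast sum at 48 h was mainly that of Spp1 (3881 ± 125.2 CPM in control and 2743 ± 30.6 at 48 h). Bglap, Alpl and Col1a1 were called lower too, Col1a2 was called higher (0.12, adjusted p = 0.042) and Runx2 was at 0.14 (adjusted p = 0.136). Of 12 chondrocyte markers, 5 were at 0 in every library (Acan, Matn1, Col9a1, Col9a2 and Cnmd) and Col2a1 had 7 reads or fewer, but Prg4 and Sox9 were well detected, and the summed level of the list was 1694 ± 19.3 CPM (SD, n = 3) in control, 1601 ± 43.2 at 24 h and 2175 ± 44.7 at 48 h. Most of the higher sum at 48 h was Prg4 (1576 ± 25.1 CPM in control and 2047 ± 41.6 at 48 h). Sox9 and Comp were also called higher at 48 h, Matn3 was called lower (log2 fold change -1.25, adjusted p = 0.00155) and Col11a2 was at 0.02 (adjusted p = 0.961). The part of these markers in the falls described below was not tested.

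The promoters of the members shared a short element. The cell cycle genes homology region (CHR), read as TTTGAA on either strand, is the element that MuvB complexes bind in many late cell cycle genes, often with a CCAAT box nearby, which is bound by NF-Y. A RefSeq table of promoters on GRCm38.p6, from 250 bases before to 50 bases after each start site, held 43 of the 51 members, and 30 of these 43 (69.8%) had the CHR, against 14.1% of the 9893 tested genes with a promoter in the table and 20.2% of all 27025 genes in it. Within 50 bases of the start site the CHR was found in 28 members (65.1%) and in 3.73% of tested genes. A CCAAT box was present in 30 members (69.8%) and in 43.2% of tested genes, and both elements were present in 24 members (55.8%) and in 5.74% of tested genes. The variant with the letters TTTAAA, which also reads the same on both strands, was found in 9 members (20.9%) and in 10.9% of tested genes. The log2 fold change of the members from control to 48 h, their change in level counted in doublings, had a median of -0.59 in the 30 with a CHR and -0.57 in the 13 without one. A match gives only the letters in this window and is neither a measured site nor a cause.

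**Figure D1:**
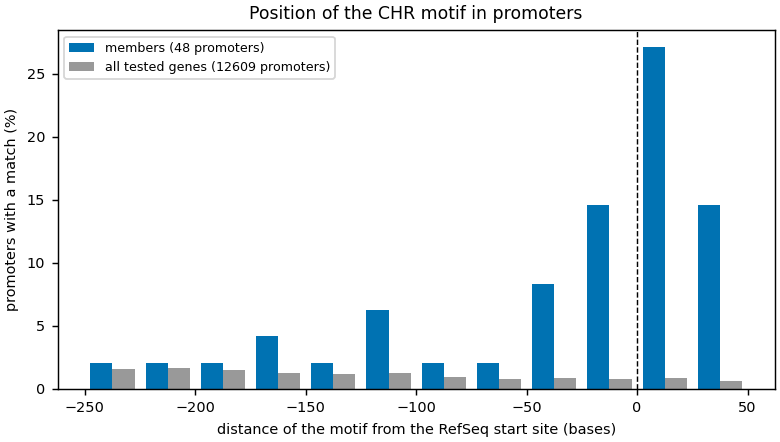
Share of promoters (y axis, percent) with a CHR match in each window of 25 bases, against the distance from the RefSeq start site (x axis, bases; negative is before the start), for the members and for all tested genes. In the first 25 bases after the start, 27.1% of the 48 member promoters and 0.864% of the promoters of tested genes had a match.

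The 5 stretches that follow show this element where it lies before the start site in mitotic genes described in this report, ordered by the size of their change at 48 h. Each is the 120 bases before the RefSeq start site, written 5′ to 3′ along the gene, with the CHR in capitals, and each matched GRCm39 exactly once on its chromosome. In Kif11 and Top2a the capitals read TTCAAA because the CHR lies on the opposite strand. Cdc20 (chr4:118294541-118294660, minus strand) has its CHR at position -18 relative to the start, between a pair of CCAAT boxes. Cdk1 (chr10:69188743-69188862, minus strand) has a CHR at -71 and another at -15. Kif11 (chr19:37364710-37364829, plus strand) has it at -19, Top2a (chr11:98915016-98915135, minus strand) at -23, and Mki67 (chr7:135318109-135318228, minus strand) at -116 and at -98.
Cdc20: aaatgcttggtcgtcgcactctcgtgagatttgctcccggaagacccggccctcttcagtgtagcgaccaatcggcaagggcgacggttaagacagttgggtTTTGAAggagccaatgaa
Cdk1: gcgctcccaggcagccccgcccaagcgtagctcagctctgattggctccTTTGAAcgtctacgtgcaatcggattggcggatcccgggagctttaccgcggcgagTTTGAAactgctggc
Kif11: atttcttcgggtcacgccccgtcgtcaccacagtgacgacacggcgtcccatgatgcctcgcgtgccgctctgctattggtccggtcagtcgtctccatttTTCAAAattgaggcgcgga
Top2a: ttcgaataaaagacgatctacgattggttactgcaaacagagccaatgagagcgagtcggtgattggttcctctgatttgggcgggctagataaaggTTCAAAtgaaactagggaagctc
Mki67: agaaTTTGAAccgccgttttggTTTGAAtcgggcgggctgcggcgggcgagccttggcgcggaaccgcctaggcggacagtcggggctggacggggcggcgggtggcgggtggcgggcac

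All 51 members were lower at 48 h than in control and none was higher. Summed over the members, the level was 8446, 8225 and 8810 CPM in the control libraries, 8978, 9036 and 8997 CPM at 24 h and 5583, 5686 and 5680 CPM at 48 h. The 48 h libraries lay far below all others, and the 24 h libraries lay just above the control libraries. Each member was called, that is, had an adjusted p under 0.05 in the edgeR test across all genes, with values up to 0.000615, and in each the 3 libraries at 48 h lay below the 3 control libraries without overlap. Among the 13812 genes tested, 24.4% were called lower and 22.0% higher at 48 h, and 27.4% had every 48 h library below every control library. Over the members the log2 fold change had a median of -0.60, against a median of -0.002 over all tested genes, and it ranged from -0.95 for Plk1 to -0.34 for Cdc25b. Expressed on the linear scale, the members stood at 51.7% to 79.2% of their control level, with a median of 65.8%. The falls were alike in size, and 36 of the 51 members lay between -0.75 and -0.5. The SD of the log2 fold changes was 0.12 among the members and 0.518 over all tested genes, which were not matched to the members in level.

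**Figure D2:**
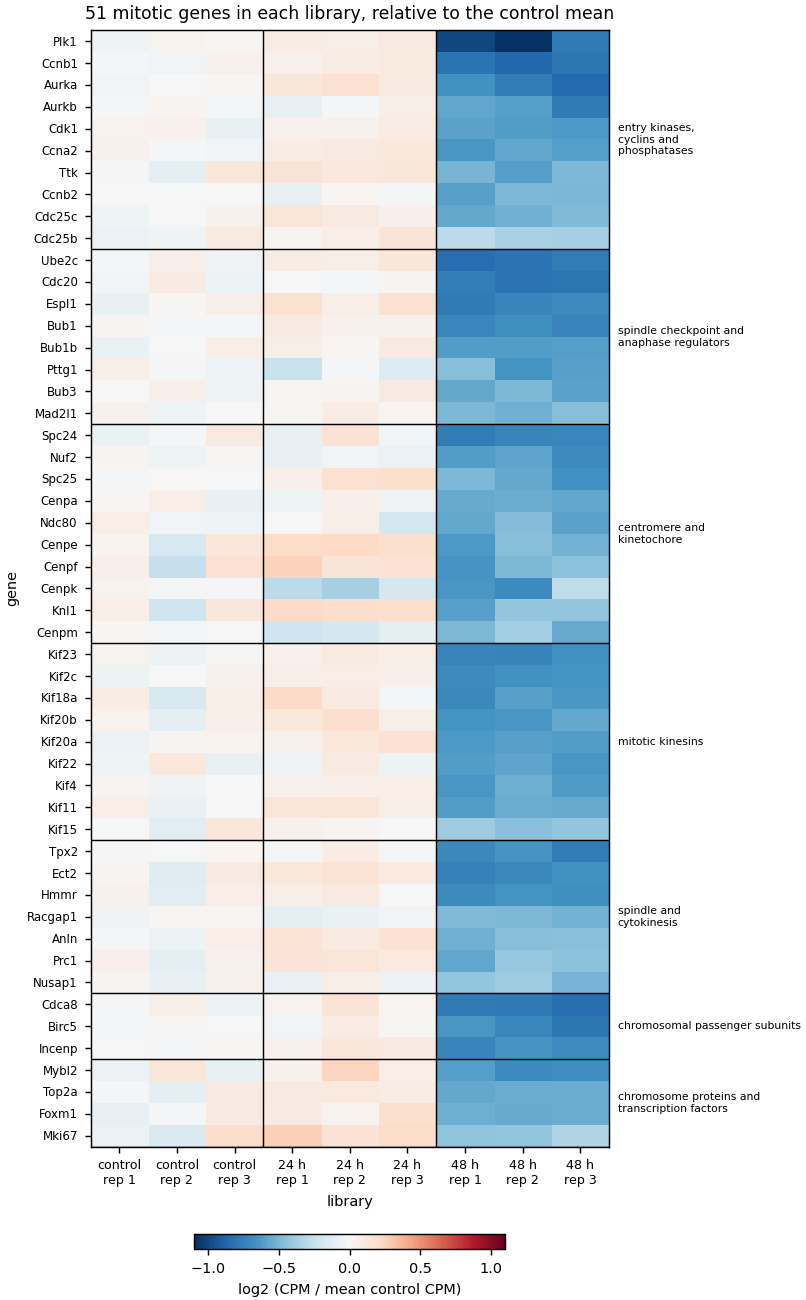
Level of each member in each library as the log2 ratio of its CPM to the mean of the control libraries (colour), with genes in rows grouped by role and the 9 libraries in columns. The 48 h columns are blue for every member, from -0.95 (Plk1) to -0.34 (Cdc25b) in the fitted log2 fold change, while the 24 h columns hold paler shades of both colours.

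The kinases, cyclins and phosphatases that start mitosis all fell at 48 h, with a median log2 fold change of -0.61 over the 10 genes. Plk1 (chr7:121758662-121769096), the polo-like kinase that acts from centrosome maturation to cytokinesis, had 150.2, 159 and 157 CPM in control, 164, 163 and 167 CPM at 24 h and 77.9, 73.0 and 90.4 CPM at 48 h. It held the lowest share of its control level among the members, with a log2 change of -0.95 ± 0.066 (± standard error, SE, as for all such values here; adjusted p = 1.77e-09). Ccnb1 (chr13:100915158-100923078), which encodes cyclin B1, the partner that activates CDK1, had 193, 192 and 202 CPM in control, 202, 207 and 210.1 CPM at 24 h and 111, 107 and 113 CPM at 48 h. The fitted change was -0.82 ± 0.049 (adjusted p = 2.21e-10), and that of Ccnb2, the gene of the sister cyclin B2, was -0.53. Within libraries the ratio of Ccnb1 to Ccnb2 was 1.65 ± 0.049 in control, 1.77 ± 0.044 at 24 h and 1.35 ± 0.074 at 48 h (mean ± SD, n = 3). Cdk1 (chr10:69170976-69188768) itself had 243, 245 and 224 CPM in control, 246, 246 and 252 CPM at 24 h and 158, 155 and 153 CPM at 48 h. Its log2 change was -0.61 ± 0.049 (adjusted p = 1.17e-08), and the ratio of Cdk1 to Ccnb1 went from 1.22 ± 0.091 in control to 1.41 ± 0.049 at 48 h. Aurkb (chr11:68936473-68942490), the Aurora kinase of the chromosomal passenger complex, had 95.8, 98.5 and 95.4 CPM in control, 91.5, 96.0 and 101 CPM at 24 h and 64.9, 63.5 and 56.2 CPM at 48 h. Its log2 change was -0.65 ± 0.063 (adjusted p = 1.20e-07), and the value of Aurka, the Aurora kinase of centrosomes and spindle poles, was -0.76. Ccna2, which encodes the S and G2 phase cyclin A2, changed by -0.60, and Ttk, the kinase that starts checkpoint signalling at kinetochores, by -0.53. The phosphatases that activate CDK1 changed by -0.52 (Cdc25c) and by -0.34 (Cdc25b), the smallest fall of the group, and the ratio of Plk1 to Cdc25b went from 2.08 ± 0.12 in control to 1.36 ± 0.17 at 48 h.

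**Figure D3:**
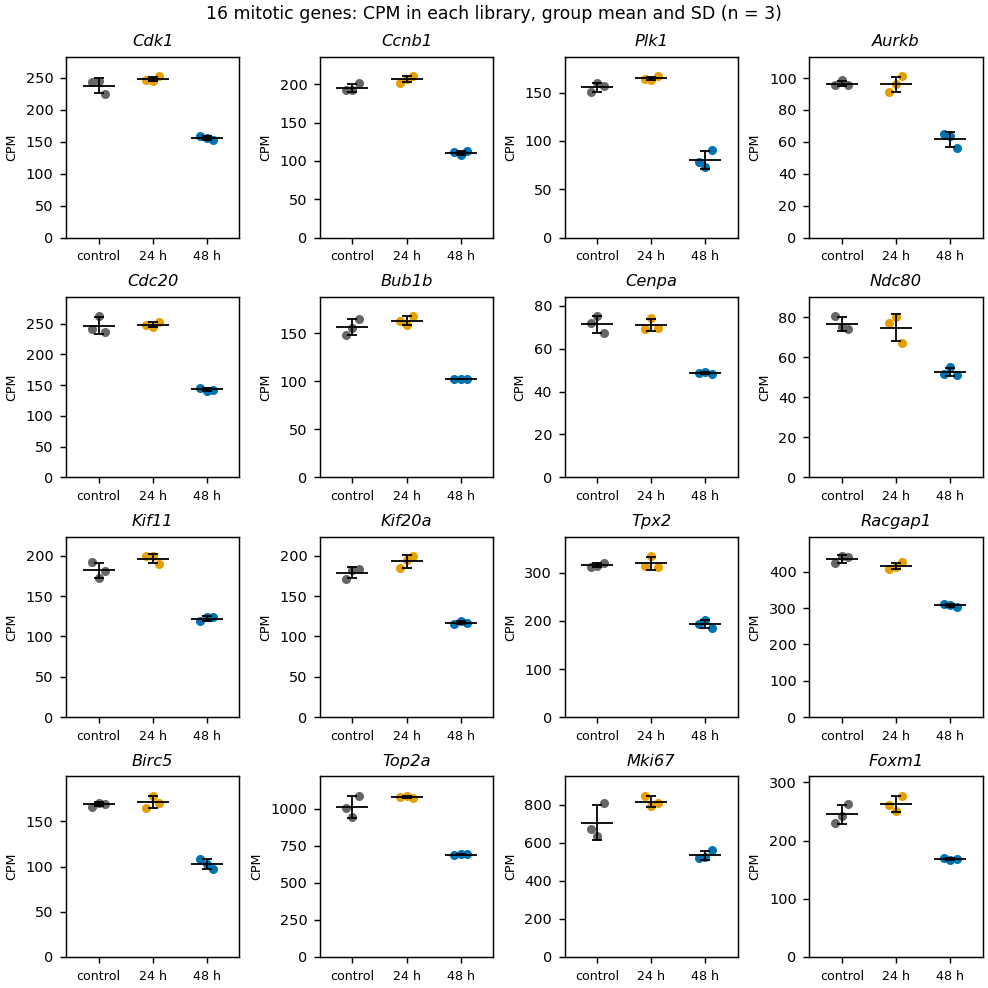
CPM in each of the 9 libraries (points) for 16 mitotic genes picked by role, with the group mean and SD (black bars, n = 3), on linear axes that start at 0. In every panel the 48 h points lie below all control and 24 h points, as for Ccnb1, with 111, 107 and 113 CPM at 48 h and 192 to 210.1 CPM in the other libraries.

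Every regulator of the spindle checkpoint and of anaphase was lower at 48 h, with a median log2 fold change of -0.66 over the 8 genes. Ube2c (chr2:164611818-164620742), the ubiquitin-conjugating enzyme that works with the anaphase-promoting complex, had 124, 130.2 and 122 CPM in control, 133, 131 and 137 CPM at 24 h and 70.2, 71.2 and 73.5 CPM at 48 h. Among these genes its change was the largest, at -0.81 ± 0.053 (adjusted p = 7.97e-10). Cdc20 (chr4:118290098-118294549), the activator of the complex and the target of the checkpoint, had 241, 262 and 237 CPM in control, 247, 245 and 252 CPM at 24 h and 146, 141 and 142 CPM at 48 h, a log2 change of -0.79 ± 0.050 (adjusted p = 5.55e-10). Bub1b (chr2:118428692-118472072), which encodes the checkpoint protein BUBR1, had 148, 156 and 164 CPM in control, 163, 158 and 168 CPM at 24 h and 102, 102 and 103 CPM at 48 h. Here the 48 h libraries were nearly identical, and the log2 change was -0.61 ± 0.053 (adjusted p = 3.40e-08). The other checkpoint genes changed by -0.71 (Bub1), -0.55 (Bub3) and -0.50 (Mad2l1). Mad2l1 encodes MAD2, which binds and restrains CDC20, and the ratio of Cdc20 to Mad2l1 was 1.86 ± 0.15 in control, 1.82 ± 0.068 at 24 h and 1.52 ± 0.039 at 48 h. Espl1, which encodes separase, the protease that cuts cohesin, changed by -0.74, and Pttg1, which encodes its inhibitor securin, by -0.57.

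At the centromere and kinetochore the 10 members fell by a median log2 value of 0.54. The NDC80 complex, which grips microtubules, is made of 4 proteins whose genes are all members. Spc24 (chr9:21666738-21671599) had 26.1, 27.1 and 29.4 CPM in control, 26.0, 30.7 and 26.9 CPM at 24 h and 16.1, 16.6 and 16.8 CPM at 48 h, and showed the largest change of the group, -0.74 ± 0.086 (adjusted p = 1.28e-06). Ndc80 (chr17:71803095-71833852) had 80.6, 75.3 and 74.4 CPM in control, 77.0, 80.4 and 67.2 CPM at 24 h and 51.9, 55.2 and 51.1 CPM at 48 h, with a log2 change of -0.54 ± 0.069 (adjusted p = 3.36e-06). Nuf2 and Spc25, the remaining subunits, changed by -0.63 and -0.58. The ratio of Ndc80 to its direct partner Nuf2 was 0.77 ± 0.029 in control (0.738 to 0.794) and 0.821 ± 0.021 at 48 h (0.797 to 0.836). The libraries at 24 h were at 0.781 ± 0.065, and their range of 0.706 to 0.822 covered that of control and overlapped that of 48 h. Cenpa (chr5:30824121-30832174), the histone H3 variant that marks centromeric chromatin, had 71.9, 75.1 and 67.3 CPM in control, 69.2, 74.4 and 69.6 CPM at 24 h and 48.7, 49.0 and 48.0 CPM at 48 h. Its log2 change was -0.56 ± 0.060 (adjusted p = 5.01e-07). Cenpe, a kinetochore motor, changed by -0.54, Cenpf, a large coiled-coil protein of the outer kinetochore, by -0.53, and Knl1, the scaffold on which checkpoint proteins assemble, by -0.49. Cenpk and Cenpm belong to the inner network that stays on centromeres through the cycle, and they changed by -0.53 and -0.48.

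The 9 mitotic kinesins, motor proteins that move along or shorten microtubules, fell by a median log2 value of 0.61. Kif23 (chr9:61823187-61854056), the motor subunit of centralspindlin, which organises the midzone of the anaphase spindle, had 106, 99.2 and 104 CPM in control, 107, 110.4 and 108 CPM at 24 h and 62.6, 61.9 and 65.0 CPM at 48 h. This was the largest change among the kinesins, -0.71 ± 0.054 (adjusted p = 5.26e-09). Kif11 (chr19:37364851-37410307), which pushes spindle poles apart, had 192, 172 and 181 CPM in control, 199.5, 199.8 and 190.0 CPM at 24 h and 119, 124 and 124 CPM at 48 h, and its log2 change was -0.57 ± 0.053 (adjusted p = 6.87e-08). Kif20a (chr18:34757666-34766330), a motor of the central spindle needed for cytokinesis, had 171, 182 and 184 CPM in control, 185, 194 and 199.8 CPM at 24 h and 115, 119 and 117 CPM at 48 h. Its change was -0.61 ± 0.052 (adjusted p = 2.10e-08). Kif2c, which takes microtubules apart, changed by -0.67, Kif18a, which dampens chromosome movements, by -0.65, and Kif20b, which acts in cytokinesis, by -0.62. The chromokinesins Kif22 and Kif4 changed by -0.61 and -0.60. Kif15, which can share the work of Kif11, had the smallest change of the kinesins, -0.43.

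The 7 genes of the spindle and of cytokinesis all fell at 48 h, with a median log2 fold change of -0.50. Tpx2 (chr2:152689884-152737241), which nucleates spindle microtubules and activates Aurora A, had 312, 315 and 321 CPM in control, 313, 335 and 312 CPM at 24 h and 193, 201 and 185 CPM at 48 h, a log2 change of -0.71 ± 0.049 (adjusted p = 1.47e-09). Ect2 (chr3:27151371-27208027), the exchange factor that activates RhoA at the cleavage site, had 193, 172 and 203 CPM in control, 205, 211 and 204 CPM at 24 h and 113, 116 and 119 CPM at 48 h, a log2 change of -0.71 ± 0.058 (adjusted p = 1.50e-08). Hmmr, a spindle assembly factor, changed by -0.68. Racgap1 (chr15:99518377-99549537), the partner of Kif23 in centralspindlin, had 424, 443 and 439.5 CPM in control, 408, 413 and 426 CPM at 24 h and 311, 309 and 303 CPM at 48 h. Its log2 change was -0.50 ± 0.043 (adjusted p = 2.32e-08), beside -0.71 for Kif23. Anln, which encodes the contractile ring scaffold anillin, changed by -0.49, Prc1, which bundles midzone microtubules, by -0.48, and Nusap1, which bundles microtubules near chromosomes, by -0.45.

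The 3 non-kinase subunits of the chromosomal passenger complex, which corrects faulty attachments together with Aurora B, had a median log2 fold change of -0.71. Cdca8 (chr4:124812258-124833104), which encodes borealin, had 92.1, 97.1 and 89.4 CPM in control, 95.5, 102 and 94.3 CPM at 24 h and 54.3, 53.9 and 51.9 CPM at 48 h, a change of -0.80 ± 0.058 (adjusted p = 2.94e-09). Birc5 (chr11:117740077-117746569), which encodes survivin, had 166, 171 and 169 CPM in control, 165, 178 and 170.0 CPM at 24 h and 108, 103 and 97.4 CPM at 48 h, a change of -0.71 ± 0.054 (adjusted p = 5.00e-09). Incenp, the scaffold of the complex, changed by -0.69. Together with Aurkb, the 4 genes of the complex changed by -0.80 to -0.65.

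The chromosome proteins and transcription factors held the most abundant members. Top2a (chr11:98883769-98915015), the topoisomerase that untangles sister chromatids, had 1001, 942 and 1085 CPM in control, 1080, 1086 and 1069 CPM at 24 h and 685, 693 and 691 CPM at 48 h, a log2 change of -0.55 ± 0.045 (adjusted p = 1.57e-08). Mki67 (chr7:135291513-135318090), which encodes the Ki-67 protein that coats mitotic chromosomes and serves as a stain for proliferating cells, had 675, 634 and 809.8 CPM in control, 847, 791 and 810.2 CPM at 24 h and 518, 524 and 562 CPM at 48 h. The control libraries of Mki67 were spread more widely than those of Top2a, and its change of -0.40 ± 0.066 (adjusted p = 7.08e-05) was among the smallest of the members. The ratio of Mki67 to Top2a was 0.698 ± 0.042 in control, 0.757 ± 0.028 at 24 h and 0.775 ± 0.033 at 48 h. Foxm1 (chr6:128339930-128353109), a transcription factor of G2 phase and mitotic genes, had 231, 242 and 263 CPM in control, 261, 251 and 277 CPM at 24 h and 169, 167 and 168 CPM at 48 h, a change of -0.54 ± 0.055 (adjusted p = 2.19e-07). Mybl2 (chr2:162896607-162926608), which encodes B-MYB, had 41.5, 47.4 and 40.9 CPM in control, 44.8, 50.97 and 45.5 CPM at 24 h and 28.5, 26.6 and 27.0 CPM at 48 h, and its change of -0.66 ± 0.077 (adjusted p = 1.28e-06) was the largest of these 4 genes.

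Levels of different genes were compared roughly per kilobase of the gene length given with the counts, which need not be that of the expressed transcripts. On this scale the control level ran from 3.06 CPM per kb for Kif18a to 132 CPM per kb for Cdc20, with a median of 23.6. Top2a followed Cdc20 with 112 CPM per kb, and Ccnb2, Plk1 and Mki67 lay at 77.4, 70.7 and 70.2 CPM per kb. At 48 h Top2a and Cdc20 were both at 76.5 CPM per kb, after a larger fall of Cdc20.

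At 24 h no member was called in either direction by edgeR or by limma-voom, and DESeq2 called 2 members higher. Among all tested genes edgeR called 3.25% higher and 2.90% lower at 24 h, and DESeq2 called 500 of 13812 higher. The members' median log2 fold change was 0.07, against -0.004 over all tested genes. A positive value was found in 41 of the 51 members and in 6749 of the 13812 tested genes. At an unadjusted p under 0.05, 13 members (25.5%) were higher, against 9.32% of all tested genes, and 2 were lower, against 1290 of the 13812 tested genes. The count of 13 depended on the processing. It was 5 with library size only and 17 with no filter on low counts, and 6 to 16 with 1 library left out. The 24 h libraries lay above all control libraries in 21 members (41.2%), against 10.3% of all tested genes, and below them in 2, Cenpk and Cenpm, against 11.2%, and they overlapped in the other 28. The lowest adjusted p-values belonged to Mki67, with a log2 change of 0.21 ± 0.066 (adjusted p = 0.0735), and to Cenpe, with 0.20 ± 0.065 (adjusted p = 0.0802). These are the members that DESeq2 called, and the levels of Cenpe were 253, 219 and 270.3 CPM in control and 285, 289 and 279 CPM at 24 h. Control replicate 3 held the highest control level in 24 of the 51 members. Without it edgeR called 8 members higher (Espl1, Cenpe, Cenpf, Knl1, Anln, Ect2, Top2a and Mki67), with log2 values from 0.156 for Top2a to 0.323 for Mki67. That run called 873 of 14163 tested genes higher, more than the main run did. With any other library left out no member was called. Over those runs the lowest value of each of the 8 lay between 0.05 (Top2a) and 0.14 (Mki67). Control replicate 2 held the lowest control level in 23 members. These were 17 of the 25 whose listed gene length is above the median of 4934 bases and 6 of the 26 others. Without control replicate 2 the highest 24 h value of any member was 0.196.

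By role, the genes of mitotic entry had a median log2 fold change of 0.08 at 24 h. The values were 0.08 ± 0.064 for Plk1, 0.08 ± 0.048 for Ccnb1, 0.06 ± 0.049 for Cdk1 and -0.01 ± 0.062 for Aurkb, with adjusted p-values of 0.548, 0.417, 0.561 and 0.975. The checkpoint genes Cdc20 and Bub1b gave 0.01 ± 0.050 and 0.06 ± 0.053 (adjusted p = 0.953 and 0.589). The kinetochore group held both the lowest value, -0.28 ± 0.11 for Cenpk (adjusted p = 0.151), and the second highest, that of Cenpe. Cenpa and Ndc80 were at -0.01 ± 0.059 and -0.04 ± 0.068 (adjusted p = 0.971 and 0.838), and the values of the group ran from -0.28 to 0.20. All 9 kinesins had positive values, up to 0.12, as did 6749 of the 13812 tested genes. Kif11 was at 0.11 ± 0.052 and Kif20a at 0.11 ± 0.051 (adjusted p = 0.267 and 0.26). Tpx2 and Racgap1 gave 0.02 ± 0.048 and -0.07 ± 0.043 (adjusted p = 0.901 and 0.437). Birc5 was at 0.02 ± 0.053, Top2a at 0.10 ± 0.045 and Foxm1 at 0.10 ± 0.054 (adjusted p = 0.894, 0.268 and 0.33).

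**Figure D4:**
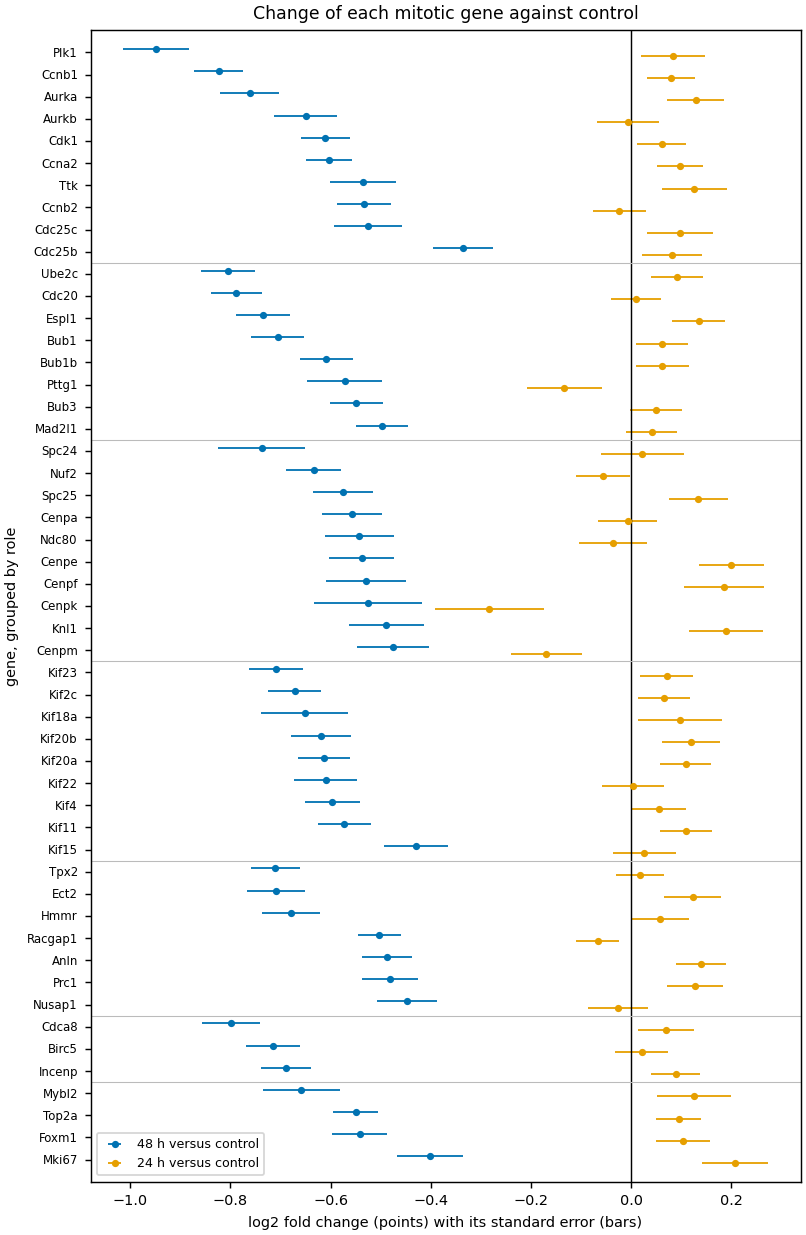
Log2 fold change against control (x axis) with its standard error (bars) for each member (y axis, grouped by role), at 48 h (blue) and 24 h (orange). The 48 h values run from -0.95 to -0.34 and the 24 h values from -0.28 to 0.21.

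From 24 h to 48 h, 50 of the 51 members fell. The median log2 fold change was -0.68, against -0.002 over all tested genes, and in the same 50 members the 48 h libraries lay below all 24 h libraries. Among all tested genes 25.4% were called lower and 23.7% higher, and 30.3% had all 48 h libraries below all 24 h libraries. This comparison shares its 48 h libraries with the comparison of 48 h with control, and 41 members had the larger absolute change here. Plk1 again had the largest fall, -1.03 ± 0.066 (adjusted p = 4.89e-10), followed by Ccnb1 with -0.90 ± 0.049 (adjusted p = 5.66e-11) and Ube2c with -0.90 ± 0.053 (adjusted p = 1.54e-10). In the other role groups the largest falls were those of Spc24 (-0.76 ± 0.085, adjusted p = 6.98e-07), Kif23 (-0.78 ± 0.053, adjusted p = 1.24e-09), Ect2 (-0.83 ± 0.058, adjusted p = 1.60e-09), Cdca8 (-0.87 ± 0.058, adjusted p = 8.08e-10) and Mybl2 (-0.78 ± 0.076, adjusted p = 1.07e-07). The exception was Cenpk, the least abundant member, with 19.3, 18.6 and 18.5 CPM in control, 15.4, 14.6 and 16.4 CPM at 24 h and 12.1, 11.6 and 15.5 CPM at 48 h. Its 24 h libraries all lay below the control libraries, its 48 h replicate 3 lay within the range of the 24 h group, and its change of -0.24 ± 0.11 was not called (adjusted p = 0.0758). Without that library the value was -0.39 (adjusted p = 0.00727). In a joint test of the 3 groups all 51 members were called, against 51.9% of tested genes.

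From 24 h to 48 h the change among the kinases was -0.67 ± 0.049 for Cdk1 and -0.64 ± 0.063 for Aurkb (adjusted p = 2.82e-09 and 1.15e-07), and among the checkpoint genes -0.80 ± 0.050 for Cdc20 and -0.67 ± 0.053 for Bub1b (adjusted p = 4.14e-10 and 7.92e-09). Cenpa and Ndc80 at the kinetochore gave -0.55 ± 0.060 and -0.51 ± 0.068 (adjusted p = 4.83e-07 and 6.40e-06), beside -0.56 ± 0.060 and -0.54 ± 0.069 against control. The kinesins Kif11 and Kif20a gave -0.68 ± 0.053 and -0.72 ± 0.052 (adjusted p = 5.80e-09 and 2.05e-09). Tpx2 gave -0.73 ± 0.049 and Racgap1 -0.44 ± 0.043 (adjusted p = 9.05e-10 and 1.26e-07). Birc5, Top2a, Mki67 and Foxm1 gave -0.74 ± 0.054, -0.65 ± 0.045, -0.61 ± 0.066 and -0.65 ± 0.055 (adjusted p = 2.88e-09, 1.76e-09, 4.83e-07 and 2.00e-08).

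Replicates of the members lay close together. The coefficient of variation of CPM within a group had a median of 4.37% over the members in control, 2.97% at 24 h and 2.80% at 48 h. Over all tested genes the medians were 8.39%, 6.24% and 5.81%. The tested genes include genes with far fewer reads than any member and were not matched to the members in level. The widest spreads were 14.6% for Cenpf in control, 9.18% for Ndc80 at 24 h and 16.4% for Cenpk at 48 h. In 8 members a gene on the opposite strand overlaps and holds reads worth over 10% of the member's own (Ccna2, Cdc20, Cenpk, Kif4, Kif18a, Kif20a, Nusap1 and Cdca8). The largest such share was 148% for Cenpk, whose neighbour Ppwd1 changed by a log2 value of -0.23 at 48 h. These shares count the neighbour's reads over its whole length, not only in the stretch shared with the member. The shared stretch was 233 bases for Cenpk, 53 for Cdc20 and 11 for Kif18a, and at most 2327, for Kif20a. The sources used here do not say whether counting used the strand. Counts of these 8 members are uncertain for that reason, by an amount not measured here.

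Genes outside the members that act in the same process were described from lists picked by function. Of 40 further mitotic genes, 39 fell at 48 h and none rose, with a median log2 fold change of -0.61. Beside this list, and the kinetochore and condensin lists below, 24.4% of all tested genes were called lower at 48 h. The largest falls were those of Gtse1 (-0.91), a microtubule-associated protein of G2 and mitosis, Cks2 (-0.88), a small subunit of CDK complexes, and Trip13 (-0.82), an ATPase that takes checkpoint complexes apart. The exception, named after its value was seen, was Hjurp, the chaperone that loads CENP-A, with -0.08 (adjusted p = 0.215). Kif14 and Arhgap11a were the 2 genes of this list called at 24 h, higher by 0.29 and 0.24 (adjusted p = 0.0339 and 0.0392), against 3.25% of all tested genes called higher at 24 h. From 24 h to 48 h all 40 fell, with a median of -0.68, against 25.4% of all tested genes called lower. Of 24 other kinetochore genes, 20 fell at 48 h, with a median of -0.32, beside -0.54 in the 10 kinetochore members. Spdl1, which recruits dynein to kinetochores, changed by -0.80, Mad1l1, which anchors MAD2, by -0.59, and Nsl1, a subunit of the MIS12 complex, by -0.56. Of 8 condensin genes, whose products compact chromosomes, 7 fell (median -0.42), with Ncapg at -0.51, Smc2 at -0.48 and Ncapd2 at -0.47.

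Of 15 genes of the anaphase-promoting complex and its second activator, 3 rose and 3 fell at 48 h, with a median of -0.07, and neither share is above that of all tested genes (22.0% higher and 24.4% lower). Fzr1, the activator of late mitosis and G1 phase, fell by a log2 value of 0.41, Cdc27 by 0.21, and Anapc13 rose by 0.32. Among 11 genes of the MuvB and DREAM complexes, which switch the mitotic promoters, 2 rose and 4 fell (median -0.12), to be read beside the same shares of all tested genes. E2f5 fell by 0.57 on the log2 scale, whereas Tfdp2 rose by 0.53 and Rbl2, which encodes the pocket protein p130 of the DREAM complex in resting cells, rose by 0.42. Of 42 DNA replication genes, which act a phase earlier, 25 fell and none rose at 48 h, with a median of -0.19. The largest falls were those of Rrm2 (-0.99), a ribonucleotide reductase subunit, and Mcm10 (-0.72), an initiation factor. Summed over the list, the replication genes stood at 6431 ± 104 CPM in control, 6255 ± 109 at 24 h and 5454 ± 68.7 at 48 h. Rrm2 was the gene of the list called at 24 h, higher by 0.18 (adjusted p = 0.0162), so the share of the list called higher is also near that of all tested genes (3.25%). The CHR was found in 57.6% of the further mitotic genes with a promoter in the table, in 71.4% of the condensin genes, in 31.8% of the other kinetochore genes, in 17.6% of the replication genes and in 14.3% of the anaphase-promoting complex genes. Among tested genes that are not members, 28.9% of those with a CHR and 25.7% of those without one were called lower at 48 h.

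**Figure D5:**
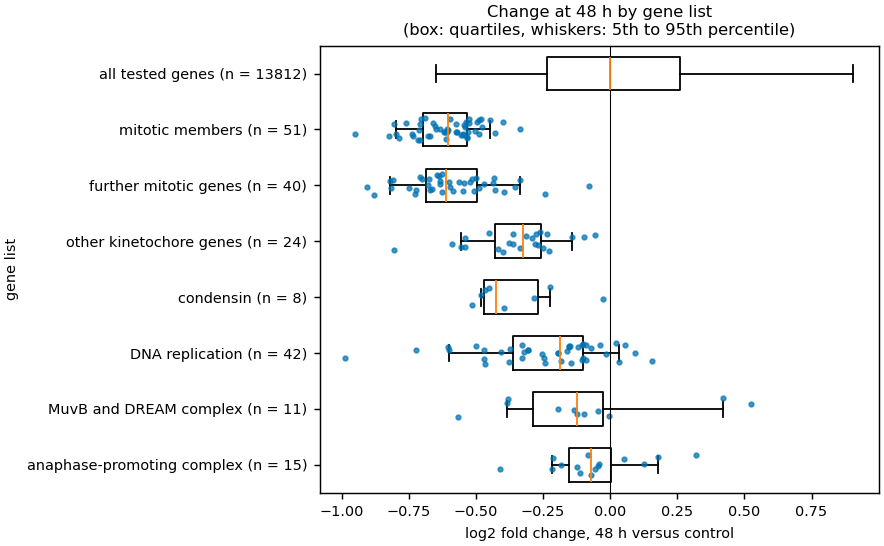
Log2 fold change at 48 h against control (x axis) for the members, 6 further lists and all tested genes (rows). Boxes give the quartiles, whiskers the 5th to 95th percentile and points single genes. The median was -0.60 for the members, -0.61 for further mitotic genes, -0.19 for DNA replication and -0.07 for the anaphase-promoting complex.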

How the data were processed

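RNA of MLO-Y4 cells from 9 co-cultures was sequenced as paired reads from directional libraries. The gene counts deposited by the authors are unnormalized whole numbers, made per the labels by trimming, HISAT2 alignment to GRCm39 and featureCounts. Whether counting used the strand, and how multiply aligned reads were treated, is not given in the sources used here, and RSEM is also named in the study's methods. Lengths and positions of genes were read from the same table. The labels do not say whether the 3 libraries of a group came from separate cultures, so p-values measure the spread between these samples, which may be technical. No replicate pair agreed within counting noise.

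Genes were kept by filterByExpr (minimum count 10), which left 13812 of 56748 genes. The quasi-likelihood test of edgeR 4.0.16 in R 4.3.3 was run over all 9 libraries with group as the only term, 6 residual degrees of freedom and TMM scaling. P-values were adjusted by Benjamini-Hochberg over all tested genes, and an adjusted p under 0.05 is a call. SE is the standard error of the log2 fold change implied by the test: the absolute log2 fold change divided by the square root of the F statistic. CPM are counts relative to the TMM-scaled library total. DESeq2 1.42.0 and limma 3.58.1 (voom) were alternatives. The test was also checked on simulated data in which far fewer genes changed than were called at 48 h. That check does not cover error rates where so many genes change. Promoter motifs were searched on both strands in the RefSeq table, and the printed stretches were matched to GRCm39.

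Members, role groups and other lists were chosen with earlier results of these data known. By rule, 16 members picked by role and, in each role group and comparison, the called member with the largest absolute change are given per library. At most 3 genes of another list are named, the called ones with the largest change. One gene that this rule names is not reported here. Ratios of members are descriptions. Same-numbered libraries of different groups did not deviate together (9 correlations, -0.049 to 0.077), and differently numbered ones gave -0.097 to 0.095. No pairing by replicate number was seen, but such a check of few libraries cannot exclude it.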

Additional observations from a re-analysis of the deposited data

Results flagged for a closer look

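The effects at 48 h and at 24 h, each taken against the same control libraries, differed in 50 of the 51 members by the direct test of 48 h against 24 h (edgeR quasi-likelihood test, adjusted p under 0.05). It is the same test as reported above, in which 25.4% of all tested genes were called lower and 23.7% higher. Values are differences in log2 fold change, 48 h minus 24 h. Among the genes of mitotic entry, the 48 h and 24 h effects differed for Plk1 by -1.03, Ccnb1 by -0.90, Aurka by -0.89, Ccna2 by -0.70, Cdk1 by -0.67, Ttk by -0.66, Aurkb by -0.64, Cdc25c by -0.62, Ccnb2 by -0.51 and Cdc25b by -0.42. For the checkpoint and anaphase regulators, the 48 h and 24 h effects differed for Ube2c by -0.90, Espl1 by -0.87, Cdc20 by -0.80, Bub1 by -0.77, Bub1b by -0.67, Bub3 by -0.60, Mad2l1 by -0.54 and Pttg1 by -0.44. At the centromere and kinetochore, the 48 h and 24 h effects differed for Spc24 by -0.76, Cenpe by -0.74, Cenpf by -0.71, Spc25 by -0.71, Knl1 by -0.68, Nuf2 by -0.58, Cenpa by -0.55, Ndc80 by -0.51 and Cenpm by -0.31. In the mitotic kinesins, the 48 h and 24 h effects differed for Kif23 by -0.78, Kif18a by -0.75, Kif20b by -0.74, Kif2c by -0.74, Kif20a by -0.72, Kif11 by -0.68, Kif4 by -0.65, Kif22 by -0.61 and Kif15 by -0.46. For the spindle and cytokinesis genes, the 48 h and 24 h effects differed for Ect2 by -0.83, Hmmr by -0.74, Tpx2 by -0.73, Anln by -0.63, Prc1 by -0.61, Racgap1 by -0.44 and Nusap1 by -0.42. In the passenger complex, the 48 h and 24 h effects differed for Cdca8 by -0.87, Incenp by -0.78 and Birc5 by -0.74. Among the chromosome proteins and transcription factors, the 48 h and 24 h effects differed for Mybl2 by -0.78, Top2a by -0.65, Foxm1 by -0.65 and Mki67 by -0.61. Every one of these differences was negative. In Cenpk the difference was -0.24 (adjusted p = 0.0758) and did not pass. Groups of 3 libraries are too small for a test of single outlying libraries, and none was run.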

How the results depend on the processing

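The count of 51 members lower at 48 h than in control held in each alternative run (RLE size factors, library size only, no filter on low counts, a filter of 50 counts, DESeq2, limma-voom, only the groups compared, a replicate block, a threshold of 0.01 and leaving out each library in turn). Their median log2 fold change of -0.60 was -0.58 with library size only and -0.58 with the filter of 50 counts, and -0.611 to -0.573 when 1 library was left out. For 48 h against 24 h, 50 members were lower in each alternative, except 51 without 48 h replicate 3, where Cenpk passed. The median of -0.68 was -0.64 with library size only, -0.70 with no filter, -0.66 with the filter of 50 counts and -0.696 to -0.671 with 1 library left out. At 24 h the count of 0 members higher became 4 with no filter (Cenpe, Cenpf, Knl1 and Mki67), 2 with DESeq2, 1 with the replicate block (Mki67, 0.215, adjusted p = 0.0198) and 0 to 8 with 1 library left out, the 8 without control replicate 3. Over all tested genes, 759 of 26232 were called higher with no filter and 500 of 13812 with DESeq2. With the block it was 538 of 13812, and without control replicate 3 it was 873 of 14163. The cause of these shifts was not tested. The 24 h median of 0.07 was 0.052 with library size only and 0.069 to 0.095 with 1 library left out. The block changed no other call of a member. In 28 combinations of a member and a setting the 24 h value changed sign, never as a call and always within 0.05 of 0. Aurkb was at 0 with RLE factors and with DESeq2 and at 0.009 with no filter, and Cenpa at 0.008 with no filter. With library size only, Cdc20 was at -0.009, Kif22 at -0.014 and Tpx2 at -0.001. With 1 library left out, the 24 h value ran from -0.043 to 0.005 for Ccnb2, -0.039 to 0.031 for Aurkb, -0.013 to 0.057 for Cdc20, -0.041 to 0.032 for Cenpa, -0.087 to 0.039 for Ndc80, -0.05 to 0.078 for Spc24, -0.028 to 0.096 for Kif15, -0.04 to 0.07 for Kif22, -0.013 to 0.04 for Tpx2, -0.07 to 0.002 for Nusap1 and -0.006 to 0.049 for Birc5. Depth limits Cenpk most, with 193 reads in its lowest library.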
